A study of Mus musculus with 15 samples.

Results

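RNA of 38 genes of the interstitial matrix was followed in kidneys of mice with and without telomerase, 14 days after folic acid or vehicle. The genes were picked by symbol from a list of fibrillar and other interstitial collagens, adhesive glycoproteins, proteoglycans, elastic fibre proteins, crosslinking enzymes and proteins that process procollagen. All 38 were found among the 19602 genes of the deposited table, and all 38 entered the tests. The filter asked for a level of 10 normalised counts or more in 3 or more libraries, and 36 of the genes met it in the 8 vehicle libraries. The other two, Thbs2 and Lum, met it only through folic acid libraries, so a difference in them was partly built in.

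The mice were Tert+/+ (here WT) or generation 3 Tert-/- (here G3), bred for successive generations without the catalytic subunit of telomerase. They were 6 to 8 weeks old, of both sexes, and received 1 intraperitoneal dose of folic acid (125 mg/kg) or of its bicarbonate vehicle. There were 4 vehicle and 3 folic acid libraries of WT mice, and 4 vehicle and 4 folic acid libraries of G3 mice. Kidneys were taken at day 14 after perfusion, and the 3′ ends of polyadenylated RNA were sequenced. The labels describe a low dose, name the cells only as kidney cells, give no measure of scarring, and do not say whether each library came from a different mouse, so p-values measure the spread between these libraries.

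The interstitial matrix is the mesh between kidney tubules and capillaries, made mainly by fibroblasts and pericytes. Collagens I, III and V are secreted as procollagens, trimmed at their ends, assembled into fibrils and crosslinked by lysyl oxidases, while fibronectin, proteoglycans and fibrillins organise the fibres and bind growth factors. A large dose of folic acid injures kidney tubules, and the injury is followed by repair and, in many animals, by scarring in which these genes are known to be more active. RNA in a whole kidney does not measure deposited protein, and fewer cells of a type cannot be told apart from less RNA per cell.

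Depth ran from 5014684 to 6609307 gene reads a library (median 6091019), and 1 read was worth 0.895 to 1.13 normalised counts. Tert, the targeted gene, was low throughout (3.00 to 22.6 in WT vehicle, 6.67 to 13.6 in WT folic acid, 2.93 to 15.1 in G3 vehicle and 3.00 to 10.7 in G3 folic acid). The sources used here do not say which part of Tert was deleted, so its reads check neither the deletion nor the labels. Y-linked RNA and Xist went against the labelled sex in 10 libraries, were as labelled in 3 (G3 vehicle 3, WT folic acid 1 and G3 folic acid 1), and were both present in 2. The summed Y-linked RNA was high in 3 WT vehicle libraries (1, 3 and 4) and 2 G3 folic acid libraries (1 and 3), intermediate in WT vehicle 2 and G3 folic acid 4, and close to 0 in the other 8 libraries. Whether sex labels or libraries were exchanged was not tested, and every group difference below takes the group labels as given. WT folic acid 1 stood apart, since Gm42418 alone took 23.0% of its reads, against 4.85 to 8.15% elsewhere. The most alike libraries of a group were G3 vehicle 3 and 4 and WT folic acid 2 and 3, whose counts differed by an average chi-square of 2.88 and 3.01 over genes (7.25 in the next pair), more than sampling alone gives. Library numbers follow the order of the sample accessions and carry no pairing.

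Averaged over genotypes, 14 of the 38 matrix genes rose after folic acid, where 1.43% of all genes tested were called higher. Single libraries differed widely: the median log2 distance of the 38 genes from the vehicle mean was 1.87, 0.36 and 0.33 in WT folic acid 1 to 3 and 1.23, 1.24, 0.88 and 1.43 in G3 folic acid 1 to 4. The 38 genes together took 0.0728 to 0.129% of reads in the 8 vehicle libraries. After folic acid they took 0.397, 0.118 and 0.118% in WT libraries 1 to 3 and 0.293, 0.293, 0.166 and 0.281% in G3 libraries 1 to 4. WT folic acid 1 thus held the largest share of all 15 libraries, and every G3 folic acid library lay above the range of the 8 vehicle libraries. WT folic acid 2 and 3 lay inside that range but above every WT vehicle library (0.0750 to 0.0968%).

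**Figure D1:**
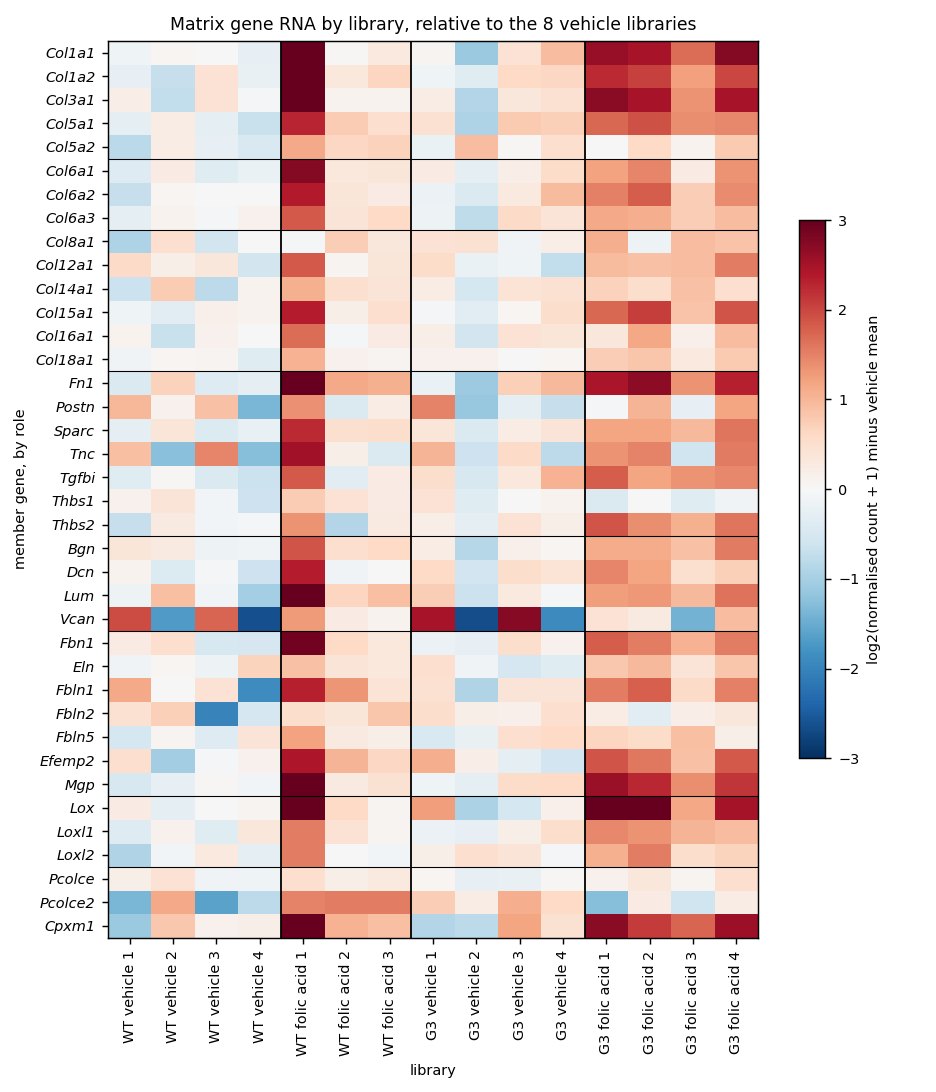
Colour map of the 38 matrix genes (lines, grouped by role) in the 15 libraries (columns), as log2(normalised count + 1) minus the mean of the 8 vehicle libraries, with colours capped at 3 in either direction. WT folic acid 1 is the highest of all 15 libraries for 29 genes (15.8% of all genes tested), WT folic acid 2 and 3 stay pale, and G3 folic acid 3 is the palest of the 4 G3 folic acid libraries.

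Counted gene by gene, WT folic acid 1 lay above all 8 vehicle libraries for 34 of the 38 genes, against 22.7% of all genes tested. WT folic acid 2 and 3 did so for 7 and 8 genes, against 12.3% of all genes in each. G3 folic acid 1, 2, 3 and 4 did so for 28, 28, 22 and 30 genes, against 14.2, 15.3, 9.61 and 14.7% of all genes. All 4 G3 folic acid libraries lay above all 8 vehicle libraries for 19 genes (2.12% of all genes). Among the 19 were Thbs2 and Lum, which met the filter only through folic acid libraries. G3 folic acid 3 was the lowest of its group for 28 of the 38 genes, a count for which no share over all genes is given here. Over all genes it was also the library of its group least often above all 8 vehicle libraries (9.61%).

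Differences were tested with limma on log2(normalised count + 1), the scale of every fold change given here, and called at a Benjamini-Hochberg adjusted p under 0.05 over the 14651 genes tested. Within WT, 4 of the 38 genes rose after folic acid, where 2.17% of all genes tested were called higher: Col5a2, Fn1, Sparc and Pcolce2. All 38 fold changes were positive, with a median log2 of 0.97 against 0.012 over all genes, and 13 genes had WT folic acid libraries that did not overlap WT vehicle (9.31% of all genes were higher in that way). EdgeR on whole reads called 13 of the 38 higher (2.54% of all genes). Without WT folic acid 1 limma called 0 of the 38, and the median was log2 0.43. In that fit 6 of the 38 had an unadjusted p under 0.05, against 2462 of the 14651 genes tested. The number called was also 0 without WT vehicle 1, 3 or 4 (0.676 to 1.31% of all genes). It was 1 without WT folic acid 3 (1.75%) and 7 without WT vehicle 2 (8.93%). It was 2 without G3 vehicle 3 or 4 or G3 folic acid 1 or 4 (3.69 to 4.40%).

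Within G3, limma called 0 of the 38 genes, where 0.273% of all genes (40 genes) were called in either direction. At an unadjusted p under 0.05 there were 26 (25 higher and Pcolce2 lower), against 13.8% of all genes, edgeR called 0 and DESeq2 called 10 (2.64% of all genes). The median log2 was 1.096 and 34 of 38 fold changes were positive, the exceptions being Thbs1, Vcan, Fbln2 and Pcolce2. G3 folic acid did not overlap G3 vehicle for 22 of the 38 genes, all higher, against 3.98% of all genes (3.77% were lower without overlap). The 22 include Thbs2 and Lum, for which a difference was partly built in by the filter. All groups share 1 estimate of spread per gene in this fit: the SE of the Col1a1 change in G3 was 0.54 with all 15 libraries and 0.32 without WT folic acid 1. Without that library 17 of the 38 rose in G3 (1.77% of all genes were called higher), and with the 2 G3 groups alone 12 rose (1.04% of all genes), all 12 of them among the 17. The count was 4 without G3 folic acid 3 (1.14% of all genes were called) and 1 without G3 folic acid 2 (1.89%).

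**Figure D2:**
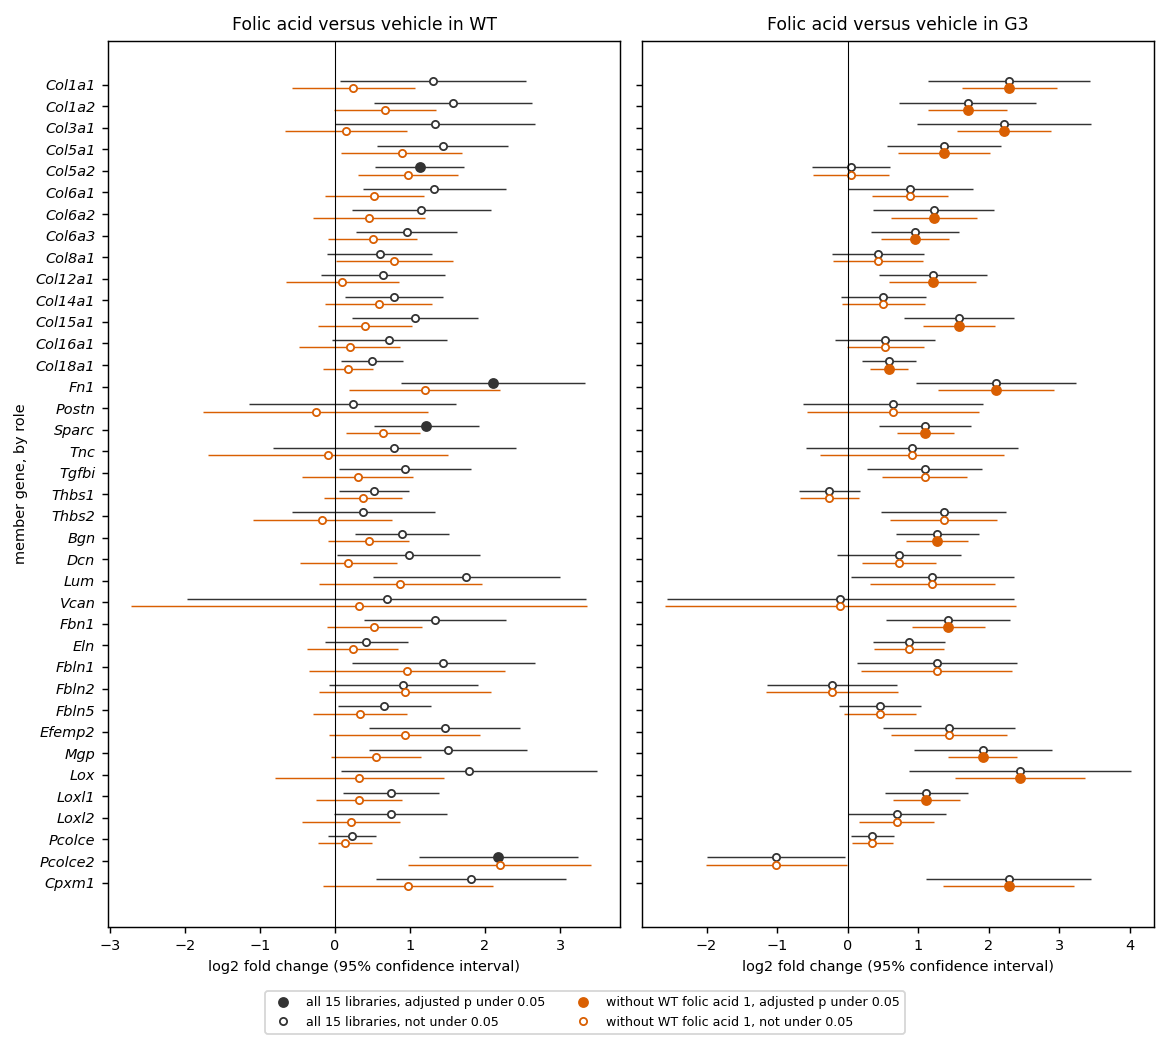
Log2 fold change after folic acid for each of the 38 genes, with 95% confidence intervals, in WT (left) and G3 (right), fitted with all 15 libraries (dark) and without WT folic acid 1 (orange); filled points passed an adjusted p under 0.05. In WT 4 genes pass with all libraries and 0 without that library, and in G3 0 pass with all libraries and 17 without it.

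The 14 genes that rose on average over genotypes were Col1a1, Col1a2, Col3a1, Col5a1, Col6a3, Col15a1, Fn1, Sparc, Bgn, Fbn1, Efemp2, Mgp, Loxl1 and Cpxm1, with adjusted p-values of 0.0308 to 0.0461 in limma. All 38 averages were positive, with a median log2 of 0.94, and edgeR on whole reads called 20 higher (2.74% of all genes). The limma count fell to 8 without WT folic acid 1 (0.212% of all genes) and to 0 without WT vehicle 1, 3 or 4, G3 vehicle 2, or G3 folic acid 1, 2 or 4, fits in which 0 to 3 of all genes were called. It was 22 without WT folic acid 2, where 3.12% of all genes were called in either direction. With the Y-linked share as a term 0 of the 38 passed (smallest limma adjusted p = 0.0763), and the median was log2 0.92. An unadjusted p under 0.05 was found for 32 with that term and for 32 without it. Of all 14651 genes tested, 2246 and 2739 had one.

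Y-linked RNA differed between the groups, and its part in the folic acid differences cannot be told apart from treatment in WT, where all vehicle libraries held more of it than all treated ones. G3 folic acid 2 and the 4 G3 vehicle libraries all held almost no Y-linked RNA, at 15.0 against 0.977 to 7.57 summed normalised counts. Between these libraries, G3 folic acid 2 lay above all 4 G3 vehicle libraries for 30 of the 38 genes (20.54% of all genes), with a median log2 difference of 1.21. With the Y-linked share in the fit limma called 0 of the 38 in G3, and 0 without the 2 intermediate libraries. At an unadjusted p under 0.05 there were 26 and 16 of the 38, against 1308 and 833 of the 14651 genes tested. WT folic acid 1 was then left out of the fit with the Y-linked share, a choice made after seeing the data. In that fit 14 of the 38 rose in G3 (0.88% of all genes) and limma called 0 in WT. The library titles also carry number series that nearly repeat the groups: within the series holding WT vehicle 1 to 3 and the 3 WT folic acid libraries the median log2 was 0.88, and within the series holding G3 vehicle 4 and the 4 G3 folic acid libraries it was 0.97. With the title series as a term limma called 0 of the 38 in any comparison. The smallest averaged limma adjusted p was then 0.479, and 21 of the 38 had an unadjusted p under 0.05 on average, against 1218 of the 14651 genes tested. There were 20 in WT and 4 in G3, against 2479 and 615 of the 14651 genes tested. Title series and group cannot be fully told apart.

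Of the 5 fibrillar collagen genes, which encode chains of collagens I, III and V, 4 rose after folic acid on average over genotypes, and Col5a2 rose in WT. The averaged calls of Col1a1 and Col1a2 held without WT folic acid 1, and those of Col3a1 and Col5a1 ended. Col1a1 (chr11:94936224-94953042, GRCm38.p6, as for all positions here) encodes the main chain of collagen I. Its normalised count was 158, 183, 173 and 146 in WT vehicle 1 to 4 and 185, 80.1, 237 and 331 in G3 vehicle 1 to 4. After folic acid it was 1769, 178 and 214 in WT and 1075, 968, 556 and 1175 in G3. WT folic acid 2 and 3 were thus inside the range of the 8 vehicle libraries, and every G3 folic acid library lay above every vehicle library. Col1a1 was 3.47-fold (log2 1.80, SE 0.40, limma adjusted p = 0.0387) higher on average over genotypes, which passed. In WT alone it was 2.47-fold (log2 1.30, SE 0.59, limma adjusted p = 0.191) and in G3 alone 4.89-fold (log2 2.29, SE 0.54, limma adjusted p = 0.0734) of vehicle. Without WT folic acid 1 the G3 change passed (limma adjusted p = 0.00317) and the WT value was log2 0.24 (limma adjusted p = 0.806).

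Col1a2 (chr6:4505618-4541543), the partner chain of collagen I, was 334, 245, 538 and 342 in WT vehicle, 366, 308, 598 and 615 in G3 vehicle, 3668, 497 and 621 in WT folic acid and 1877, 1652, 936 and 1599 in G3 folic acid. The averaged rise was 3.11-fold (log2 1.64, SE 0.34, limma adjusted p = 0.0354), with log2 1.57 (limma adjusted p = 0.0754) in WT and log2 1.70 (limma adjusted p = 0.0952) in G3. Col3a1 (chr1:45311538-45349706), which encodes collagen III of loose connective tissue, was 149, 77.7, 177 and 124 in WT vehicle and 152, 70.3, 164 and 178 in G3 vehicle. After folic acid it was 1649.5, 140.1 and 140.1 in WT and 851, 724, 334 and 726 in G3, again with WT folic acid 2 and 3 inside the vehicle range and the 4 G3 libraries above it. Its averaged rise was 3.42-fold (log2 1.77, SE 0.43, limma adjusted p = 0.0461). In G3 alone Col3a1 was log2 2.22 (SE 0.59, limma adjusted p = 0.0912), and in WT alone log2 1.33 (SE 0.63, limma adjusted p = 0.218), or log2 0.15 (limma adjusted p = 0.887) without WT folic acid 1. The averaged call for Col3a1 ended without that library (log2 1.18, limma adjusted p = 0.0627).

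Collagen V nucleates collagen I fibrils, and its 2 chain genes listed here ran differently in G3. Col5a1 was 24.9, 36.02, 24.9 and 18.98 in WT vehicle, 42.7, 15.6, 54.1 and 51.1 in G3 vehicle, 153, 52.8 and 43.8 in WT folic acid and 103, 119, 82.9 and 85.9 in G3 folic acid. Its folic acid and vehicle libraries did not overlap in either genotype, and the averaged rise was 2.64-fold (log2 1.40, SE 0.28, limma adjusted p = 0.0331). Col5a2 was 44.1, 91.9, 65.2 and 56.9 in WT vehicle and 172, 120.0 and 127 in WT folic acid. The 3 WT folic acid libraries lay above WT vehicle, and Col5a2 rose 2.19-fold (log2 1.13, SE 0.28, limma adjusted p = 0.0315) in WT. Without WT folic acid 1 its value was log2 0.97 (limma adjusted p = 0.129), which did not pass. In G3 it was 68.1, 149, 80.1 and 111 after vehicle and 77.2, 118, 83.9 and 134 after folic acid, overlapping fully (log2 0.045, SE 0.26, limma adjusted p = 0.970). The difference between the Col5a2 effects of the 2 genotypes was log2 -1.09 (SE 0.38, limma adjusted p = 0.141) and did not pass. Col3a1 and Col5a2 are neighbours on chromosome 1, with 24.6 kb between them.

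**Figure D3:**
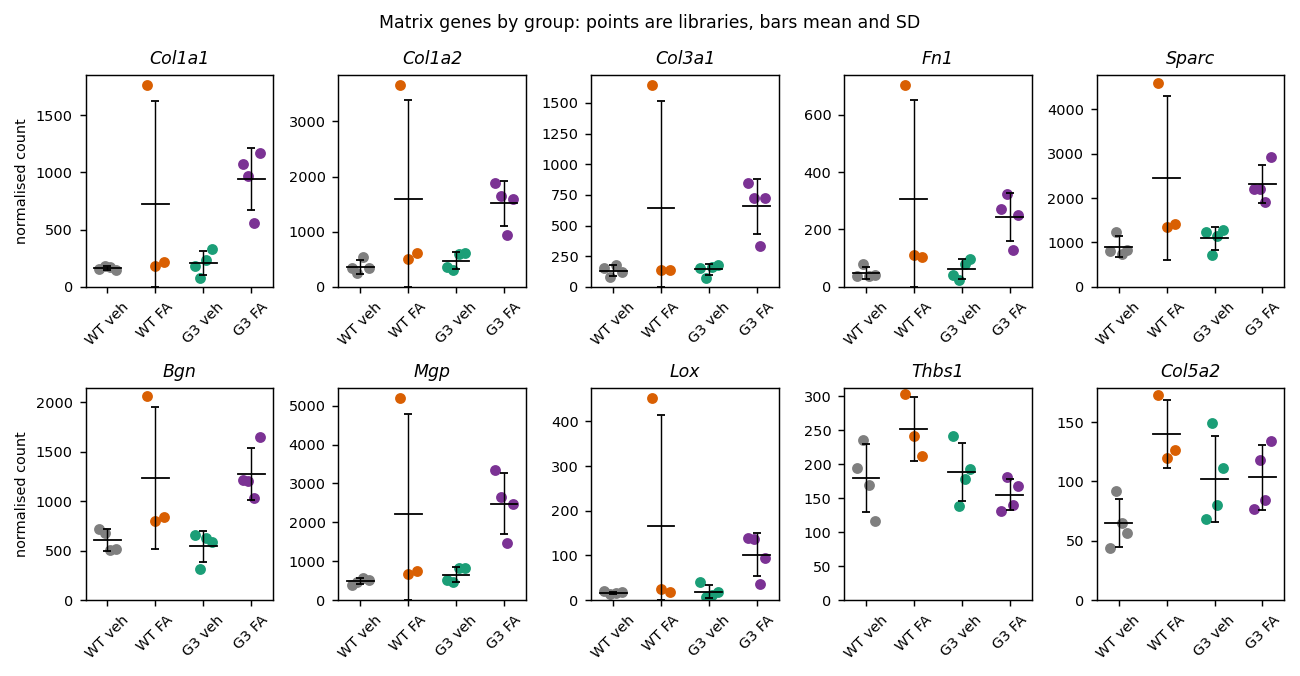
Normalised counts of 10 matrix genes by group (veh, vehicle; FA, folic acid): points are libraries, horizontal bars group means, and error bars the SD, with an end that would pass below 0 drawn at 0. For Col1a1, Col1a2, Col3a1, Fn1, Sparc, Bgn, Mgp and Lox, WT folic acid 1 lies far above the other two WT folic acid libraries; for Col5a2 all 3 lie above WT vehicle.

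Sequences just before the transcription start are shown for 3 genes called on average over genotypes and of different G and C content (Col1a2, Col3a1 and Sparc) and for the gene whose folic acid effect differed between genotypes (Pcolce2). Each is the 250 bases before the RefSeq start, written 5′ to 3′ on the gene's own strand, with CAGAC or its reverse complement GTCTG, the core that SMAD proteins bind downstream of TGF-beta, in capitals. Col1a2 is chr6:4505368-4505617 (plus strand), Col3a1 chr1:45311288-45311537 (plus strand), Sparc chr11:55420081-55420330 (minus strand) and Pcolce2 chr9:95637378-95637627 (plus strand), all in GRCm38.p6.
Col1a2: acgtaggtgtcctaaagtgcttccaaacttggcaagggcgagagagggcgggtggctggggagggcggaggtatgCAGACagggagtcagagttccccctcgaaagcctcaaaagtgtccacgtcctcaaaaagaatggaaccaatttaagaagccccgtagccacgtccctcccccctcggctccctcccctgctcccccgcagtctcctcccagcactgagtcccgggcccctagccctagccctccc
Col3a1: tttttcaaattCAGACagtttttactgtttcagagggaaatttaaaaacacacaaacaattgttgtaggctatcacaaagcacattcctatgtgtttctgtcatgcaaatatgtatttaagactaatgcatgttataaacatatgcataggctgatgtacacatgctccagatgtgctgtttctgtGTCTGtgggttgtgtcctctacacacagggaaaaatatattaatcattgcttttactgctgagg
Sparc: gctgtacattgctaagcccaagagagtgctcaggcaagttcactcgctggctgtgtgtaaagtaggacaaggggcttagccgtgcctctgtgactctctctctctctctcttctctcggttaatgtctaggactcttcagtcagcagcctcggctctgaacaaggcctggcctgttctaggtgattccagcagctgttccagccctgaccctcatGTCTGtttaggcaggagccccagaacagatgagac
Pcolce2: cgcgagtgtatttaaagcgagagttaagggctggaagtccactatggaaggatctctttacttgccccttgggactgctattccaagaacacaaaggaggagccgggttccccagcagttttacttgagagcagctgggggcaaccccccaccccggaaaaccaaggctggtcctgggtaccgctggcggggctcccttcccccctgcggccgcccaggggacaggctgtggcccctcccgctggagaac
The matches begin 175 bases before the start in Col1a2, 239 and 64 bases before it in Col3a1 and 35 bases before it in Sparc, and the Pcolce2 window holds no match. RefSeq windows were matched for 25 of the 38 genes. Of these, 11 (44%) held the letters CAGAC on either strand, against 40.2% of the 10456 windows of the same length from tested genes. Among genes with a window that were called on average over genotypes, Col1a2, Col3a1, Col5a1, Col6a3, Sparc and Efemp2 held a match. Bgn, Col15a1, Fbn1 and Cpxm1, called in the same way, held none. The GC box GGGCGG was in 68% against 57.9%, the CCAAT box in 28% against 35.8%, the TATA box TATAAA in 12% against 6.71% and the TEAD element CATTCC in 8% against 10.8%, searched on both strands with overlaps between motifs ignored. The Col3a1 window was the poorest in G and C of the 25, at 35.2%, and the richest reached 76.4%.

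Collagen VI forms beaded microfibrils around cells, and the 3 chain genes listed here had averaged folds of 1.94 to 2.27. Col6a3 passed: it was 48.6, 63.5, 56.6 and 63.9 in WT vehicle, 52.9, 34.2, 87.6 and 77.2 in G3 vehicle, 213, 76.8 and 88.6 in WT folic acid and 129, 125, 97.9 and 113 in G3 folic acid. Folic acid and vehicle libraries did not overlap in either genotype, and the averaged rise was 1.94-fold (log2 0.96, SE 0.22, limma adjusted p = 0.0402). Its call ended without WT folic acid 1 (log2 0.73, limma adjusted p = 0.0991). Col6a1 and Col6a2, neighbours on chromosome 10 with 85.2 kb between them, were 2.15-fold and 2.27-fold of vehicle on average and did not pass (limma adjusted p = 0.0672 and 0.0517). In the WT libraries alone both lay above vehicle without overlap, at 246, 45.1 and 46.7 against 27.1, 42.7, 27.8 and 30.97 for Col6a1.

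Of the 6 other interstitial collagens, only Col15a1 passed in the average. Col15a1, a collagen that sits between basement membranes and fibrils, was 42.98, 36.97, 52.8 and 50.9 in WT vehicle and 45.8, 38.1, 49.8 and 68.2 in G3 vehicle. After folic acid it was 246, 53.7 and 67.7 in WT and 159.8, 204, 85.9 and 177 in G3, with no overlap in either genotype. The averaged rise was 2.50-fold (log2 1.32, SE 0.27, limma adjusted p = 0.0331), and it held without WT folic acid 1 (log2 0.99, limma adjusted p = 0.0459). Col18a1, whose C-terminal part is endostatin, was 483, 478, 435 and 460.0 in G3 vehicle and 729.9, 781, 541 and 754 in G3 folic acid. All 4 treated G3 libraries were above all 8 vehicle libraries, yet the averaged 1.45-fold difference just missed the threshold (limma adjusted p = 0.0511). Col12a1, which decorates collagen I fibrils, was above all vehicle libraries in all 4 G3 folic acid libraries (42.3 to 67.1) and was log2 0.92 (limma adjusted p = 0.0767) on average. Col14a1, Col16a1 and Col8a1 were log2 0.65 (limma adjusted p = 0.107), log2 0.63 (limma adjusted p = 0.176) and log2 0.51 (limma adjusted p = 0.232). Col8a1 was the collagen of this group that WT folic acid 1 did not lead: it was 43.1, 74.9 and 56.2 in the 3 WT folic acid libraries.

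Among the 7 adhesive and matricellular glycoproteins, Fn1 and Sparc rose and the other five did not pass. Fn1 (chr1:71585473-71653280) encodes fibronectin, which binds integrins and is laid down ahead of collagen. It was 36.2, 79.6, 37.4 and 40.96 in WT vehicle, 42.7, 22.5, 81.1 and 98.2 in G3 vehicle, 706, 109 and 104 in WT folic acid and 273, 323, 127 and 251 in G3 folic acid. Unlike Col1a1, it was above the vehicle libraries in every treated library. Fn1 rose 4.30-fold (log2 2.10, SE 0.58, limma adjusted p = 0.0457) in WT and 4.30-fold (log2 2.10, SE 0.40, limma adjusted p = 0.0308) on average, and was 4.30-fold (log2 2.11, SE 0.54, limma adjusted p = 0.0811) of vehicle in G3. Without WT folic acid 1 the WT call ended (log2 1.20, limma adjusted p = 0.215) and the averaged call held (log2 1.65, limma adjusted p = 0.0450).

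Sparc (chr11:55394159-55420080), a collagen-binding protein that guides fibril assembly, was 811, 1246, 728 and 835 in WT vehicle and 1245, 723, 1137 and 1271 in G3 vehicle. After folic acid it was 4588, 1357 and 1405 in WT and 2201, 2216, 1913 and 2937 in G3, above vehicle of any genotype in all 7 libraries. Its rise was 2.33-fold (log2 1.22, SE 0.33, limma adjusted p = 0.0444) in WT, log2 0.64 (limma adjusted p = 0.174) without WT folic acid 1, and 2.23-fold (log2 1.16, SE 0.23, limma adjusted p = 0.0320) on average. In G3 it was log2 1.099 (SE 0.31, limma adjusted p = 0.108).

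Tgfbi and Thbs2 were higher in G3 folic acid than in any vehicle library without passing. Tgfbi, which carries the name of TGF-beta because that factor induces it, was 80.8, 51.7, 57.9 and 62.6 in G3 folic acid, 32.5, 15.6, 28.1 and 47.1 in G3 vehicle and 82.8, 17.3 and 26.7 in WT folic acid. Thbs2, a thrombospondin of fibroblasts, was 25.4, 17.9, 13.99 and 20.6 in G3 folic acid libraries, 17.02, 2.88 and 7.63 in WT folic acid libraries, and at 3.39 to 8.66 in the vehicle libraries it rests on few reads. Thbs1, which activates latent TGF-beta, ran differently: it was 303, 241 and 212 in WT folic acid and 132, 181, 139.9 and 167 in G3 folic acid, with no overlap, while its vehicle libraries (117 to 242) overlapped both. The Thbs1 difference between genotypes after folic acid was log2 -0.69 (SE 0.22, limma adjusted p = 0.1001). Tnc and Postn, matricellular proteins known from healing tissue, varied widely within groups. In WT vehicle Tnc was 66.7, 14.2, 99.8 and 13.99 and Postn 24.9, 13.3, 23.03 and 3.996, and after folic acid they were log2 0.85 (limma adjusted p = 0.403) and log2 0.44 (limma adjusted p = 0.632) on average.

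Of the 4 proteoglycan genes, Bgn passed. Bgn (chrX:73483601-73495936) encodes biglycan, a small leucine-rich proteoglycan that binds collagen and TGF-beta. It was 724, 674, 506 and 518 in WT vehicle, 655, 309.7, 625 and 583 in G3 vehicle, 2060.2, 796 and 841 in WT folic acid and 1216, 1209, 1035 and 1648 in G3 folic acid. All 7 treated libraries lay above all 8 vehicle libraries, although WT folic acid 2 and 3 did so narrowly. The averaged rise was 2.12-fold (log2 1.08, SE 0.20, limma adjusted p = 0.0308), and it held without WT folic acid 1 (log2 0.86, limma adjusted p = 0.0459). In G3 alone Bgn was log2 1.27 (SE 0.28, limma adjusted p = 0.0675) and in WT alone log2 0.90 (SE 0.30, limma adjusted p = 0.0882).

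Dcn (chr10:97479500-97518163), decorin, is the close relative of biglycan and did not pass in any comparison. It was 389, 273, 355 and 234 in WT vehicle, 545, 240.3, 524 and 479 in G3 vehicle, 1854, 337 and 358 in WT folic acid and 998, 822, 507 and 594 in G3 folic acid. WT folic acid 2 and 3 sat inside the vehicle range, and G3 folic acid 3 overlapped G3 vehicle. Dcn was log2 0.86 (SE 0.31, limma adjusted p = 0.140) on average, log2 0.98 (SE 0.45, limma adjusted p = 0.200) in WT and log2 0.73 (SE 0.42, limma adjusted p = 0.473) in G3. Lum, lumican, lies 47.3 kb from Dcn and was 64.7, 8.64 and 10.5 in WT folic acid and 13.6, 14.1, 10.99 and 17.9 in G3 folic acid, against 1.998 to 10.4 in vehicle libraries, so its log2 1.48 (limma adjusted p = 0.0638) rests on few reads.

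Vcan, the large proteoglycan versican, varied widely within groups. It was 72.4, 4.74, 62.4 and 1.998 in WT vehicle, 103, 1.95, 124 and 4.01 in G3 vehicle, 44.2, 21.1 and 19.1 in WT folic acid and 24.5, 21.6, 5.99 and 34.9 in G3 folic acid. High values stood in WT vehicle 1 and 3 and in G3 vehicle 1 and 3, and those same 4 libraries had the highest summed urothelium markers of the 15 (297, 266, 549 and 206 normalised counts, against 20.52 to 138 elsewhere, for 7 genes of which all 7 were in the table). Tnc was likewise higher in WT vehicle 1 and 3 than in WT vehicle 2 and 4. The part of urothelium RNA in these values was not tested. Vcan was log2 0.29 (SE 0.86, limma adjusted p = 0.887) on average after folic acid.

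**Figure D4:**
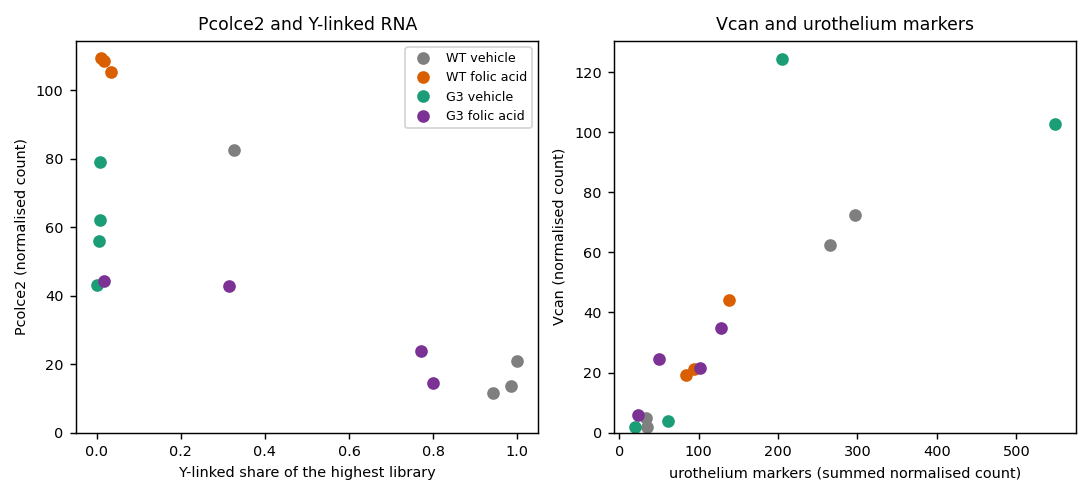
Left, Pcolce2 against the Y-linked share of each library (summed Y-linked RNA relative to the highest library); right, Vcan against summed urothelium markers; points are the 15 libraries coloured by group, in normalised counts. Pcolce2 is lowest in the libraries with the highest Y-linked share, and the 4 highest Vcan values lie in the 4 libraries with the most urothelium RNA.

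Of the 7 elastic fibre genes, Fbn1, Efemp2 and Mgp rose on average. Fbn1, fibrillin-1 of the microfibrils that hold latent TGF-beta, was 61.1, 73.9, 36.5 and 35.96 in WT vehicle, 45.8, 42.99, 74.7 and 56.1 in G3 vehicle, 390.3, 78.7 and 64.8 in WT folic acid and 183, 151, 108 and 150.3 in G3 folic acid. It was above all vehicle libraries in every G3 folic acid library, and the averaged rise was 2.60-fold (log2 1.38, SE 0.31, limma adjusted p = 0.0387). Efemp2 (fibulin-4), which brings lysyl oxidase to elastin, was 15.8, 4.74, 10.6 and 11.99 in WT vehicle, 24.4, 12.7, 8.66 and 7.02 in G3 vehicle, 62.4, 23.04 and 17.2 in WT folic acid and 42.7, 34.8, 20.98 and 41.2 in G3 folic acid. G3 vehicle 1 overlapped G3 folic acid 3, and the averaged rise of 2.73-fold (log2 1.45, SE 0.32, limma adjusted p = 0.0388) ended without WT folic acid 1 (log2 1.18, limma adjusted p = 0.110).

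Mgp (chr6:136872435-136875823), matrix Gla protein, an inhibitor of calcification, was among the members with the most reads. It was 395, 465, 569.9 and 525 in WT vehicle, 505, 456, 814 and 837 in G3 vehicle, 5198, 669 and 753 in WT folic acid and 3342, 2654, 1459.5 and 2465 in G3 folic acid. G3 folic acid lay wholly above all vehicle libraries. WT folic acid 2 and 3 were below G3 vehicle 3 and 4 but above every WT vehicle library. Mgp rose 3.27-fold (log2 1.71, SE 0.34, limma adjusted p = 0.0325) on average, with log2 1.92 (SE 0.46, limma adjusted p = 0.0737) in G3 and log2 1.51 (SE 0.50, limma adjusted p = 0.0862) in WT. Its averaged call held without WT folic acid 1 (log2 1.23, limma adjusted p = 0.0300). Eln, elastin itself, Fbln1, Fbln2 and Fbln5 did not pass on average, at log2 0.64 (limma adjusted p = 0.0672), log2 1.35 (limma adjusted p = 0.0778), log2 0.34 (limma adjusted p = 0.602) and log2 0.56 (limma adjusted p = 0.141). Eln showed higher values in G3 folic acid (74.4, 82.7, 54.9 and 75.1) than in most vehicle libraries (29.2 to 66.9).

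The 3 lysyl oxidase genes among the 38, whose enzymes crosslink collagen and elastin, were all higher after folic acid in their means. Loxl3 and Loxl4 belong to the same family but not to the 38. Loxl3 had higher means after folic acid in both genotypes. Loxl4 had means of 33.4 in G3 vehicle and 8.58 in G3 folic acid, and of 21.2 and 28.7 in WT. Loxl1 passed: it was 27.1, 39.8, 27.8 and 45.95 in WT vehicle, 31.5, 30.3, 41.1 and 52.1 in G3 vehicle, 106, 48.95 and 38.1 in WT folic acid and 99.9, 93.01, 73.9 and 69.8 in G3 folic acid. All 4 G3 folic acid libraries were above all vehicle libraries, and the averaged rise was 1.91-fold (log2 0.93, SE 0.21, limma adjusted p = 0.0387). It ended without WT folic acid 1 (log2 0.72, limma adjusted p = 0.0941). Lox had the largest fold of the 38 on average, 4.33-fold, and did not pass (log2 2.11, SE 0.55, limma adjusted p = 0.0554). It was 453, 24.95 and 17.2 in WT folic acid and 139, 136, 36.96 and 94.8 in G3 folic acid, against 19.2, 13.3, 16.3 and 16.98 in WT vehicle and 39.7, 7.82, 10.8 and 18.04 in G3 vehicle. G3 vehicle 1 overlapped G3 folic acid 3, and WT folic acid 1 was the highest of the 15. Without WT folic acid 1, Lox was called in G3 at log2 2.44 (limma adjusted p = 0.00783). Loxl2 was log2 0.72 (limma adjusted p = 0.119) on average.

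Of the 3 procollagen processing genes, Cpxm1 rose on average, Pcolce2 rose in WT and Pcolce passed in no comparison. Cpxm1, a carboxypeptidase-like secreted protein, was 6.79, 28.4, 17.3 and 17.98 in WT vehicle, 8.14, 8.79, 36.8 and 22.05 in G3 vehicle, 186, 33.6 and 30.5 in WT folic acid and 108, 70.5, 54.9 and 98.4 in G3 folic acid. It did not overlap between treatments in either genotype and rose 4.13-fold (log2 2.04, SE 0.41, limma adjusted p = 0.0325) on average, a call that ended without WT folic acid 1 (log2 1.63, limma adjusted p = 0.0646). Pcolce, the enhancer that speeds removal of the C-propeptide of procollagen, was 534, 611, 512 and 684 in G3 folic acid and 505, 406, 419 and 501 in G3 vehicle, without overlap but with little distance. It was log2 0.29 (limma adjusted p = 0.141) on average.

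Pcolce2 (chr9:95637628-95695551), a related enhancer, rose in WT, and its folic acid effect differed between genotypes. It was 13.6, 82.5, 11.5 and 20.98 in WT vehicle and 106, 108 and 109.6 in WT folic acid. In G3 it was 62.04, 42.99, 78.98 and 56.1 after vehicle and 14.5, 44.2, 23.98 and 42.9 after folic acid. All 3 WT folic acid libraries were the highest of the 15, and WT vehicle 1, 3 and 4 were below all G3 vehicle libraries. Pcolce2 rose 4.53-fold (log2 2.18, SE 0.50, limma adjusted p = 0.0248) in WT and was log2 -1.01 (SE 0.46, limma adjusted p = 0.344) in G3. The difference between these effects was log2 -3.19 (SE 0.68, limma adjusted p = 0.0157), the only one of the 38 that passed in that comparison, in which 1.67% of all genes were called lower and 3.82% in either direction. Pcolce2 also went with Y-linked RNA: it was at 11.5 to 24.0 in the 5 libraries with high Y-linked RNA and at 43.0 to 109.6 in the 8 with almost none. With the Y-linked share as a term the difference was log2 0.0030 (limma adjusted p = 0.9997) and the WT value log2 0.17 (limma adjusted p = 0.991).

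The genotypes were then compared within each treatment, and the difference of their folic acid effects was tested. The tables hold no telomere lengths. Summed Y-linked RNA was 283 to 867 in WT vehicle and 0.977 to 7.57 in G3 vehicle. Genotype and Y-linked RNA therefore cannot be told apart after vehicle. After vehicle, 0 of the 38 genes passed in limma (2 at an unadjusted p under 0.05, against 17.9% of all genes), where 2.9% of all genes were called, and edgeR and DESeq2 also called 0. G3 and WT vehicle libraries overlapped for all 38 genes (4.29% of all genes were higher in G3 without overlap and 6.72% lower), and the median log2 was 0.21, with a range of -0.16 to 0.60 over all alternatives. After folic acid 0 passed in limma (3 at an unadjusted p under 0.05, against 20.4%), where 2.3% of all genes were called, edgeR called 0 and DESeq2 called Pcolce2 (5.21% of all genes). The median was log2 0.20, a direction that turned in other fits: it was -0.031 by DESeq2, -0.015 by edgeR, -0.053 without WT folic acid 2, -0.10 without WT folic acid 3 and 0.73 without WT folic acid 1. The 3 genes without overlap, Thbs1, Fbln2 and Pcolce2, were all lower in G3 (9.44% of all genes were lower in that way and 7.84% higher).

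For the reference genes, the G3 to WT difference after vehicle was log2 0.17 (SE 0.54, limma adjusted p = 0.912) in Col1a1, log2 0.075 (SE 0.59, limma adjusted p = 0.964) in Col3a1 and log2 0.20 (SE 0.54, limma adjusted p = 0.892) in Fn1. It was log2 0.27 (SE 0.31, limma adjusted p = 0.697) in Sparc, log2 -0.20 (SE 0.28, limma adjusted p = 0.764) in Bgn and log2 0.47 (SE 0.42, limma adjusted p = 0.597) in Dcn. After folic acid it was log2 1.16 (SE 0.59, limma adjusted p = 0.278) in Col1a1, log2 0.96 (SE 0.63, limma adjusted p = 0.413) in Col3a1 and log2 0.20 (SE 0.58, limma adjusted p = 0.881) in Fn1, and log2 0.15 (SE 0.33, limma adjusted p = 0.834) in Sparc, log2 0.18 (SE 0.30, limma adjusted p = 0.779) in Bgn and log2 0.21 (SE 0.45, limma adjusted p = 0.826) in Dcn. None of these passed. The difference of the folic acid effects, G3 minus WT, was log2 0.99 (SE 0.80, limma adjusted p = 0.582) in Col1a1, log2 0.88 (SE 0.86, limma adjusted p = 0.660) in Col3a1 and log2 0.0019 (SE 0.79, limma adjusted p = 0.9997) in Fn1. In Sparc it was log2 -0.12 (SE 0.45, limma adjusted p = 0.932), in Bgn log2 0.37 (SE 0.41, limma adjusted p = 0.701) and in Dcn log2 -0.26 (SE 0.62, limma adjusted p = 0.885).

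These comparisons turned on WT folic acid 1. Without it, 8 of the 38 genes were higher in G3 than in WT after folic acid (1.86% of all genes were called higher): Col1a1 at log2 2.22 (limma adjusted p = 0.0103), Col1a2 at log2 1.40 (limma adjusted p = 0.0279), Col3a1 at log2 2.14 (limma adjusted p = 0.0122), Col15a1, Tgfbi, Thbs2, Mgp and Lox. The folic acid effect then differed between genotypes in 4 genes (3.88% of all genes): it was larger in G3 for Col1a1 (log2 2.05, limma adjusted p = 0.0307), Col3a1 (log2 2.07, limma adjusted p = 0.0289) and Mgp (log2 1.36, limma adjusted p = 0.0473), and smaller for Pcolce2 (log2 -3.20, limma adjusted p = 0.0249). These values set 4 G3 libraries against 2 WT libraries that were much alike, and the library left out was chosen after its values were seen. Thbs2 met the filter only through folic acid libraries, so its call was partly built in. The count after folic acid was 1 without WT vehicle 2 or G3 folic acid 2 (3.55 and 3.19% of all genes were called). That after vehicle was 1 without WT vehicle 2 (4.68%). With the Y-linked share as a further term to the fit without WT folic acid 1, 2 genes, Col1a1 and Mgp, passed after folic acid (0.369% of all genes) and 0 passed for the difference of effects.

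Of the macrophage markers 4 of 9 tested rose on average (1.43% of all genes were called higher), 1 rose in G3 and limma called 0 in WT, and of the fibroblast and pericyte markers 2 of 10 rose on average. The averaged counts were 1 and 1 without WT folic acid 1, and 8 of the 9 macrophage markers rose in G3 (1.77% of all genes). In that fit 2 of the 10 fibroblast and pericyte markers rose in G3 and 1 fell. The sum of 9 macrophage markers in the table, of 10 listed, was 3861, 1343 and 1335 in WT folic acid 1 to 3 and 3284, 2762, 1299 and 3307 in G3 folic acid 1 to 4, against 798 to 1467 in the vehicle libraries. WT folic acid 1 and G3 folic acid 1, 2 and 4 were high in both matrix and macrophage RNA. G3 folic acid 3 had a matrix share above all vehicle libraries and a macrophage sum inside their range. That sum was still above G3 vehicle (798 to 1235). Csf1r was the largest part of the sum in every vehicle library, at 497 to 1094. In G3 folic acid 3, Cd68, C1qb, C1qc, Itgam and Lyz2 were above all vehicle libraries, and Adgre1, C1qa, Csf1r and Mrc1 were not. Of the 9 macrophage genes Adgre1 was listed at 0 in at least 1 library, and none of the 11 fibroblast and pericyte genes was. The sum of 11 fibroblast and pericyte markers was 1907 in WT folic acid 1, 893 to 925 in the other WT folic acid libraries, 816 to 1092 in G3 folic acid and 601 to 842 in vehicle. Rgs5, its largest part in every vehicle library, was 259 to 301 in G3 folic acid and 352 to 396 in G3 vehicle. The change in G3 was positive for 9 of the 10 markers tested. The sum of 6 smooth muscle and myofibroblast markers was 1491, 1089 and 1069.5 in WT folic acid 1 to 3, above the 689 to 994 of WT vehicle, and 749 to 977 in G3 folic acid against 746 to 1390.2 in G3 vehicle. Proximal tubule markers, 8 genes, summed to 25608, 40360 and 39693 in WT folic acid 1 to 3 and 22918 to 40395 in G3 folic acid, against 31584 to 47511 in vehicle. Endothelial markers, 8 genes, summed to 2530.1 to 2888 in WT folic acid, 2321 to 2518 in G3 folic acid and 2199 to 2845 in vehicle, and podocyte markers, 6 genes, to 605 to 1193, 810.2 to 1044 and 683 to 1352. G3 vehicle 1 stood apart in adipose markers, 6 genes in the table of 7 listed, with a sum of 3565 against 129 to 753 elsewhere. It was the highest of the 8 vehicle libraries for 6 matrix genes (Col18a1, Dcn, Efemp2, Lox, Postn and Thbs1), a count that did not set it apart. WT vehicle 2 was the highest for 6 as well, G3 vehicle 3 for 7, G3 vehicle 4 for 12 and the other vehicle libraries for 1 to 3. The part of these cell types in the matrix differences was not tested.

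**Figure D5:**
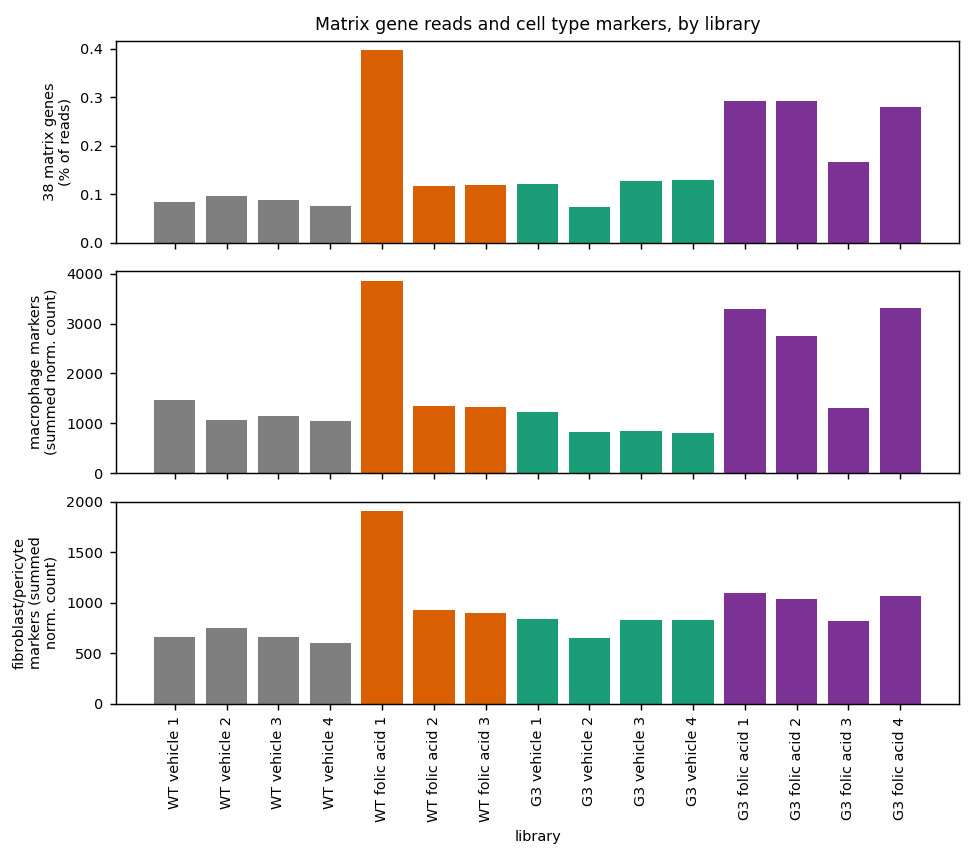
Bars from 0 for each of the 15 libraries, coloured by group: share of reads in the 38 matrix genes (top), summed macrophage markers (middle) and summed fibroblast and pericyte markers (bottom), in percent of reads or normalised counts. WT folic acid 1 and G3 folic acid 1, 2 and 4 are high in the top and middle panels, and G3 folic acid 3 is lower in both.

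Of 23 tested genes of collagen synthesis, folding and secretion, 3 rose and 0 fell on average (1.43% of all genes were called higher), with a median of log2 0.11 against 0.94 for the 38 matrix genes. In WT 2 of the 23 rose (2.17% of all genes), and in G3 1 fell (0.273% of all genes were called). After vehicle 1 was higher in G3 (2.9% called), after folic acid 2 were lower in G3 (2.3% called), and 2 had a lower folic acid effect in G3 (3.82% called). Adamts2, which removes the N-propeptide, was 15.8, 26.5, 24.9 and 17.98 in WT vehicle, 16.3, 20.5, 23.8 and 21.05 in G3 vehicle, 101, 23.995 and 35.3 in WT folic acid and 59.9, 99.6, 33.97 and 67.1 in G3 folic acid, and rose 2.45-fold (log2 1.30, SE 0.27, limma adjusted p = 0.0383). Bmp1, which removes the C-propeptide, rose 1.74-fold (log2 0.80, SE 0.19, limma adjusted p = 0.0457) on average and 2.31-fold (log2 1.21, SE 0.28, limma adjusted p = 0.0260) in WT. Colgalt1, which adds galactose to hydroxylysine, rose 1.43-fold (log2 0.52, SE 0.13, limma adjusted p = 0.0461) on average and 1.84-fold (log2 0.88, SE 0.19, limma adjusted p = 0.0183) in WT. The 3 averaged calls and both WT calls ended without WT folic acid 1. In single comparisons 3 other genes passed, named here after their values were seen. Loxl4, a lysyl oxidase gene, fell in G3 to 0.269-fold (log2 -1.90, SE 0.36, limma adjusted p = 0.0377). P3h4 was higher in G3 after vehicle at 1.87-fold (log2 0.90, SE 0.24, limma adjusted p = 0.0486). P3h2 was lower in G3 than in WT after folic acid at 0.548-fold (log2 -0.87, SE 0.20, limma adjusted p = 0.0370).

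Of 27 tested genes of a list of other interstitial matrix proteins, 2 rose and 0 fell on average (1.43% of all genes were called higher), with a median of log2 0.40. In WT 3 of the 27 rose (2.17% of all genes), and in G3 limma called 0, with 7 at an unadjusted p under 0.05 (13.8% of all genes). These counts were 0 on average, 1 in WT and 2 in G3 without WT folic acid 1. Aebp1, a collagen-binding protein, was 362, 446, 275 and 286 in WT vehicle, 396, 312, 382 and 322 in G3 vehicle, 909, 573 and 631 in WT folic acid and 500.2, 566, 383 and 777 in G3 folic acid. It rose 1.77-fold (log2 0.83, SE 0.15, limma adjusted p = 0.0308) on average, and without WT folic acid 1 was log2 0.73 (limma adjusted p = 0.0564). Ecm1 rose 1.62-fold (log2 0.70, SE 0.15, limma adjusted p = 0.0359) on average and 2.35-fold (log2 1.23, SE 0.21, limma adjusted p = 0.00904) in WT, where it passed without WT folic acid 1 as well at log2 1.15 (limma adjusted p = 0.0343). Its averaged call ended without that library (log2 0.66, limma adjusted p = 0.0866). Its folic acid effect was smaller in G3 than in WT by 0.477-fold (log2 -1.07, SE 0.29, limma adjusted p = 0.0491), or log2 -0.99 (limma adjusted p = 0.0926) without WT folic acid 1. Prelp, a proline- and arginine-rich proteoglycan, was 1.89-fold (log2 0.92, SE 0.23, limma adjusted p = 0.0514) of vehicle and did not pass.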

How the data were processed

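The deposited table holds 1 signal per gene and library: gene counts that the authors divided by a size factor for each library. Per the submitters' processing notes the tools were FastQC 0.11.7, TopHat2 2.0.10, Bowtie 1.0.0, SAMtools 0.1.19, HTSeq 0.6.1 and DESeq2, with GRCm38. Per the labels, libraries were made with a stranded 3′ kit, so a value counts reads near the 3′ end, is not divided by length, and is unaffected by a gene on the other strand where strand was used. Every value was a whole multiple of its library's step within 0.001, so whole reads were recovered for edgeR 4.0.16 and DESeq2 1.42.0, run as alternatives.

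Groups came from the labels. The 14651 genes that reached 10 normalised counts in 3 or more libraries were tested in limma 3.58.1 (R 4.3.3, mean-variance trend) on log2(value + 1) over all 15 libraries, with 4 group means and no covariate. P-values were adjusted by Benjamini-Hochberg over all genes tested, and calls were made at an adjusted p under 0.05. Alternatives were a term for labelled sex, Y-linked share or title series, other filters, pseudocounts, scalings, weights and tools, the compared groups alone, and each library left out. The code was tested on simulated data. The 38 genes and all lists were chosen with earlier results of these data known. Full statistics are given for genes called in a comparison and for Col1a1, Col3a1, Fn1, Sparc, Bgn and Dcn in every comparison, and from each pathway list for the 3 genes of smallest p on average over genotypes. Positions and promoter windows are from RefSeq (GRCm38.p6), with 250 bases before the start for 25 of the 38 genes and 13 unmatched.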

Additional observations from a re-analysis of the deposited data

Results flagged for a closer look

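In 7 of 114 groups of 4 libraries, 1 library lay far from the other three of its group for a matrix gene (6.14%, where chance gives about 1 in 20, or 5%). G3 vehicle 2 was the low library for 3 of them: Bgn was 309.7 there against 583 to 655, Dcn was 240.3 against 479 to 545, and Fbln1 was 10.7 against 28.1 to 29.5. In WT vehicle, Col6a2 was 20.4 in library 1 against 33.6 to 35.1, and Fn1 was 79.6 in library 2 against 36.2 to 41.0. In G3 folic acid, Col12a1 was 67.1 in library 4 against 42.3 to 44.5, and Tnc was 23.0 in library 3 against 91.7 to 106. The folic acid effect on Pcolce2 differed between genotypes by log2 -3.19 in limma (adjusted p = 0.0157), and by log2 0.0030 with the Y-linked share as a term.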

How the results depend on the processing

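Counts of the 38 genes called are followed by counts of all genes called. DESeq2 gave 19 and 1257 in WT, 10 and 387 in G3, 24 and 862 averaged, 787 genes for G3 against WT after vehicle, and 1 and 763 after folic acid. EdgeR gave 13 of the 38 in WT and 466 genes averaged. Library weights gave 2087 genes in WT, 18 and 697 in G3, 23 and 907 averaged, 2 and 1492 after vehicle, 17 and 2851 after folic acid, and 3 and 1548 for the difference of effects. The compared groups alone gave 1 and 420 in WT, 12 and 208 in G3, and 74 genes after folic acid. The labelled sex gave 370 genes in WT, 12 in G3, 425 averaged, 17 after vehicle, and 0 and 103 for the difference. The title series gave 0 and 2 in WT, 0 genes in G3, 0 and 0 averaged, 1 gene after vehicle, 0 after folic acid, and 0 and 3 for the difference. The Y-linked share gave 0 and 1 in WT, 9 genes in G3, 0 and 0 averaged, 1 gene after vehicle, 17 after folic acid, and 0 and 2 for the difference. Without the 2 intermediate libraries that term gave 0 and 2, 3 genes, 0 and 5, 1 gene, 31 genes, and 0 and 0. Without WT folic acid 1, chosen after seeing the data, it gave 0 and 0, 14 and 129, 0 and 0, 1 gene, 2 and 54, and 0 and 3. A filter at 50 gave 16 genes in G3 and 169 averaged, and a pseudocount of 5 or quantile normalisation gave 1 of the 38 after folic acid. The Pcolce2 difference became log2 0.0030 with the Y-linked share and 0.0045 without WT folic acid 1 as well. The causes were not tested.

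Leaving out 1 library gave 0 to 7 of the 38 and 99 to 1309 genes in WT, 0 to 17 and 3 to 364 in G3, 0 to 22 and 0 to 691 averaged, 0 to 1 and 83 to 686 after vehicle, 0 to 8 and 27 to 615 after folic acid, and 1 to 4 and 260 to 928 for the difference. Of 6728 values of single matrix genes under the alternatives, 6288 stayed on the same side of the threshold (446 of these changed sign with no call in either fit), 210 passed newly, 228 lost their call and 2 turned. No paired analysis was possible because the titles carry no replicate numbers and library numbers follow accession order. Thbs2 and Lum rest on few reads, and 3 or 4 libraries a group limit what could be called.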

Other observations

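Postn, a matricellular protein of healing tissue, followed Vcan and Tnc in WT vehicle, with 24.9 and 23.0 in libraries 1 and 3 against 13.3 and 3.996 in libraries 2 and 4. It did not do so throughout G3 vehicle, where it was 35.6, 4.88, 9.74 and 7.02 in libraries 1 to 4. Library 3 of that group was high in Vcan (124) and Tnc (53.0) and low in Postn. Within the title series that holds G3 vehicle 4, all 4 G3 folic acid libraries lay above that library for 29 of the 38 genes, against 18.4% of all genes tested, a comparison with 1 vehicle library and no test.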
